A study of Mus musculus with 18 samples.

Results

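Among the genes of mouse chromosome 3, 10 had been picked for a change of their RNA in the aorta of mice with a prime-edited *Tspan2* promoter, although each lies megabases away from *Tspan2*. They are *Sfrp2*, *Tigd4*, *Insrr*, *Naxe*, *Pmf1*, *Ash1l*, *Muc1*, *Pygo2*, *S100a11* and *Selenbp2*, 10 of the 55453 gene symbols in each count table. The genes were selected on their fold change between mutant and wild type in the prime-edited (PE2) mice, so their PE2 values are given below as a description without a test. The aortae of mice edited by homology-directed repair (HDR) at the same site had no part in the choice, and there the genes were tested.

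Bulk RNA-seq was carried out on single aortae cleaned of the tissue around them, to ask whether an edited CArG box changes genes other than *Tspan2*. In the HDR experiment, 5 *Tspan2* +/+ and 5 *Tspan2* sg/sg mice of 12 weeks, labelled strain C57BL/6, carried the wild-type or the homozygous substituted box, and each group held 3 females and 2 males. In the PE2 experiment, 4 *Tspan2* +/+ and 4 *Tspan2* peg/peg mice of 8 weeks, labelled FVB/N/B6(Cg)-Tyrc-2J/J, were compared. All PE2 libraries were female apart from 1 male wild type, and no further allele or agent is named for any group. Both lines began from injected hybrid oocytes of FVB/NJ mothers and B6(Cg)-Tyr2J/J fathers, founders were crossed to C57BL/6J, and homozygotes came from intercrosses of heterozygotes. The PE2 line descends from 2 founders. The parental origin of chromosome 3 in the single mice was not analysed here. Age, strain label, the share of males, sequencing depth and editing method all differ between the experiments and cannot be told apart from each other.

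A CArG box is the binding sequence of serum response factor, a transcription factor that drives contractile genes of smooth muscle, and *Tspan2* encodes a tetraspanin of the cell membrane. A promoter sequence of this kind acts on its own gene, and in some cases on genes of the same neighbourhood. Genes on a single chromosome are also inherited together, the more so the closer they lie. The 10 genes serve unrelated functions: signalling through Wnt ligands and insulin-like receptors, chromatin and kinetochores, metabolite repair, a membrane mucin, and binding of calcium or selenium.

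The edited box is shown with its flanks on the strand of *Tspan2*, since it defines the groups. The sequences were read from the oligonucleotides the study designed for editing and genotyping, and capitals mark the 10 bases of the box.
Wild type: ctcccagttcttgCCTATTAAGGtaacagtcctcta
HDR, sg/sg: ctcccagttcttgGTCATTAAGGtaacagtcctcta
PE2, peg/peg: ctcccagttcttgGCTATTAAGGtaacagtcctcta
Counted from 1 at the 5′ end of the box, the HDR allele carries C1G, C2T and T3C, and the PE2 allele carries C1G alone.

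The HDR libraries held 17290992 to 24880385 counts each, and those of PE2 held 38820265 to 44895615. *Tspan2* itself followed the labels. Its level, as counts scaled to library size (CPM), was 209 ± 60.1 (SD, n = 5) in HDR wild types and 24.9 ± 8.12 in sg/sg. It was 218 ± 45.0 (SD, n = 4) in PE2 wild types and 19.96 ± 6.74 in peg/peg, and the genotypes did not overlap in either experiment. By edgeR's quasi-likelihood test it fell by 3.07 ± 0.27 (log2, SE; adjusted p = 0.00226) and by 3.45 ± 0.29 (adjusted p = 0.0292). It was the only gene past an adjusted p of 0.05 in either experiment. The smooth muscle markers (*Acta2*, *Myh11* and 4 others) summed to 15824 to 35383 CPM in the HDR and to 27001 to 52393 CPM in the PE2 libraries, with none at 0. The third peg/peg library stood apart from the other 7 PE2 libraries. Its skeletal muscle markers summed to 1133 CPM against at most 17.6, its cardiac muscle markers to 524 against at most 96.3, and its mesothelial and epithelial markers to 735 against at most 70.4. Its endothelial markers were lowest, at 573 against at least 1251, as were its brown fat markers, at 4.48 against at least 271. The PE2 fold change of each of the 10 genes is therefore also given without it, as are the summaries of other genes that it moved. In HDR, the wild type numbered 3 held the most cardiac muscle markers, 104 CPM against at most 14.2 in the others, and the most mesothelial and epithelial markers, also 104 CPM, against at most 58.0, and leaving it out changed no call. In bulk tissue, fewer cells of a type and less RNA per cell cannot be told apart.

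In PE2 aorta, 4 of the 10 genes had a higher mean in peg/peg (*Tigd4*, *Insrr*, *Ash1l* and *Selenbp2*) and 6 a lower one (*Sfrp2*, *Naxe*, *Pmf1*, *Muc1*, *Pygo2* and *S100a11*). The peg/peg libraries lay all above or all below the wild types for 6 genes, against 2.54% of the 16401 genes tested. They lay above for *Ash1l* and *Selenbp2* (1.43% of all genes) and below for *Naxe*, *Pmf1*, *Muc1* and *S100a11* (1.1% of all genes). This follows from the choice of the genes and is no finding. The ratio of the means ran from 0.315 for *Sfrp2* to 15.4 for *Selenbp2*, and it lay between 0.834 and 1.19 for *Naxe*, *Pmf1*, *Ash1l* and *Pygo2*, as the plot of the levels in every library shows. Of the 10, all had enough reads to enter the PE2 test. The test required 0.244 CPM in 4 libraries. *Selenbp2* reached that level in 0 wild-type and 4 peg/peg libraries, and *Insrr* in 1 and 3, so both passed through the group in which they were high.

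**Figure D1:**
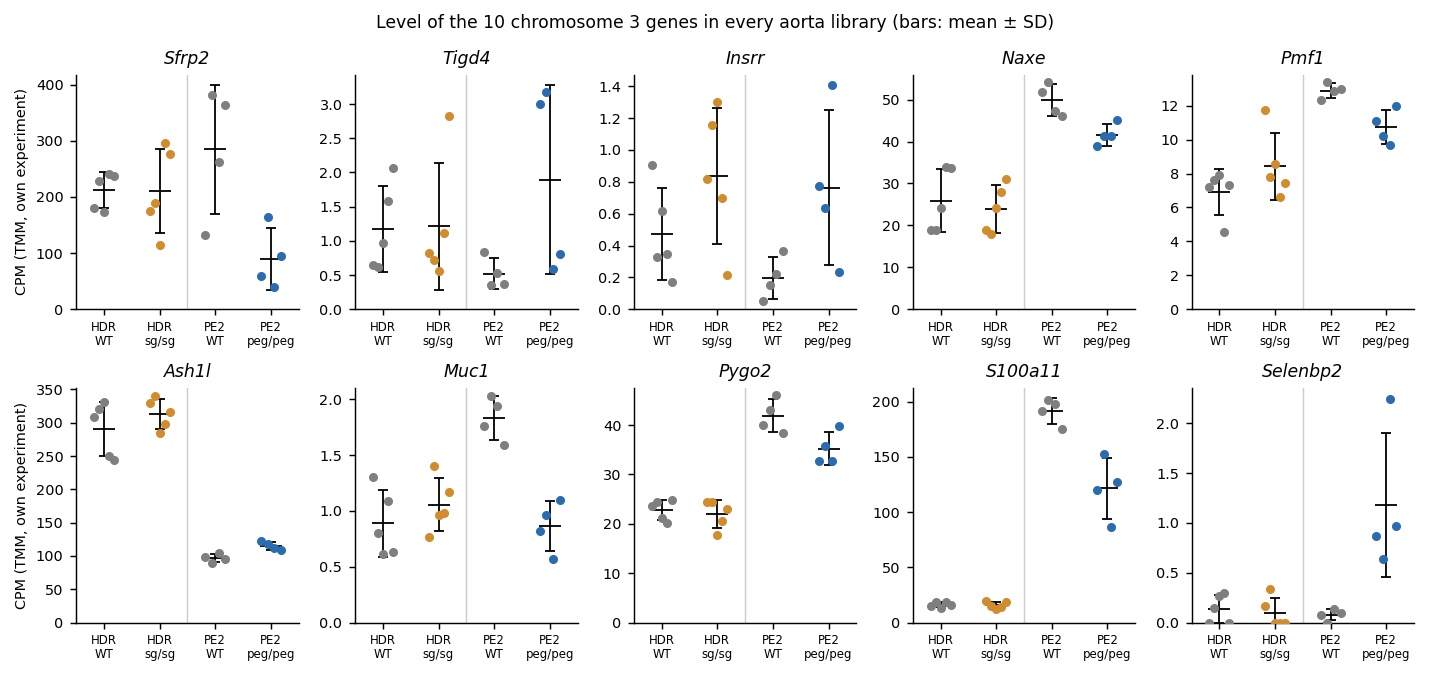
Level of each gene in every library, in TMM-normalised CPM of its own experiment (vertical axes, linear from 0), for HDR wild type and sg/sg (left of the line, n = 5 each) and PE2 wild type and peg/peg (right, n = 4 each). Points are libraries and bars are mean ± SD. The PE2 groups separate for *Naxe*, *Pmf1*, *Ash1l*, *Muc1*, *S100a11* and *Selenbp2*, and the HDR groups overlap in all 10 panels.

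Both genes of the Wnt pathway were lower in peg/peg. *Sfrp2* encodes a secreted protein that binds Wnt ligands, and in vessels it is known from fibroblasts. Its PE2 wild types stood at 132, 382, 262 and 364 CPM and its peg/peg libraries at 59.3, 164, 40.2 and 95.1 CPM. The lowest wild type lay below the highest peg/peg library, so the groups overlapped although the peg/peg mean was 0.315 times that of the wild types. The log2 fold change was -1.67 ± 0.49 (SE), and -1.43 ± 0.45 without the third peg/peg library. The adventitial fibroblast markers (*Pdgfra*, *Dcn*, *Lum* and 3 others, none at 0) were measured beside it. They summed to 5667 to 9656 CPM in wild types and 6568 to 11883 in peg/peg, with the highest sum in peg/peg library 3. Their part in the *Sfrp2* values was not tested. *Sfrp2* shares 347 exonic bases (16.1% of its exons) with the antisense gene *Gm26771*, which held 0.11 to 0.33 CPM in wild types and 0.19 to 0.42 CPM in peg/peg.

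*Pygo2* encodes a nuclear reader of methylated histone H3 that joins the β-catenin complex, the effector end of the same pathway. Its PE2 levels were 40.03, 43.1, 46.1 and 38.4 CPM in wild types and 32.7, 35.7, 32.8 and 39.8 CPM in peg/peg. Only peg/peg library 4 reached into the wild-type range. The log2 fold change was -0.25 ± 0.10, and -0.23 ± 0.10 without the third library. With the male wild type left out, the groups of *Pygo2* and of *Insrr* no longer overlapped. With 3 wild types against 4, groups lay apart in 8 of the 10 genes and in 4.02% of all genes tested, where the full set gave 6 and 2.54%.

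The other small shifts concerned 3 broadly expressed genes. *Naxe* encodes the epimerase that repairs hydrated NADH and NADPH. It stood at 46.2 to 54.2 CPM in PE2 wild types and at 38.9 to 45.1 CPM in peg/peg, a log2 fold change of -0.26 ± 0.08. *Pmf1*, a subunit of the MIS12 complex that links kinetochores to microtubules, stood at 12.4 to 13.4 CPM and at 9.71 to 12.0 CPM, a log2 fold change of -0.26 ± 0.11. *Ash1l*, a methyltransferase of histone H3 lysine 36, went the other way, from 90.0 to 104 CPM in wild types to 110 to 123 CPM in peg/peg, a log2 fold change of 0.25 ± 0.08. In all 3 the groups were adjacent rather than far apart, and the within-group SD was 0.08 to 0.10 on the log2 scale. Without the third peg/peg library the values were -0.26, -0.22 and 0.26. The start of *Ash1l* overlaps that of *Dap3* on the other strand by 352 exonic bases (2.37% of *Ash1l*), and *Dap3* had a log2 fold change of -0.07 ± 0.07.

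*S100a11* encodes a calcium-binding protein of the S100 family that works with annexins. In PE2 wild types it stood at 192, 201, 197 and 175 CPM, and in peg/peg at 120, 153, 86.4 and 127 CPM. The wild types were close together, the peg/peg libraries spread more, and no library crossed over. The peg/peg mean was 0.635 times the wild type, the log2 fold change was -0.66 ± 0.17, and it was -0.53 ± 0.11 without the third library, the lowest of all. Reads of this short transcript (511 exonic bases) cannot all be placed with certainty. Of the distinct 75-base stretches of its Gencode transcripts, 37.8% also occur in *Gm12854* or *Gm7665*, and 34.0% of 100-base stretches do. The count tables gave *Gm12854* 3, 7, 7 and 40 counts in PE2 wild types and 1, 1, 1 and 2 counts in peg/peg, and *Gm7665* at most 1 count in any library.

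*Muc1* is a transmembrane mucin of epithelial and mesothelial surfaces. Its PE2 levels were 1.76, 2.03, 1.94 and 1.59 CPM in wild types and 0.824, 0.967, 0.571 and 1.09 CPM in peg/peg, from 303 and 140 counts in all. Each peg/peg library lay below each wild type and the mean was 0.472 times theirs. The log2 fold change was -1.08 ± 0.27, and -0.94 ± 0.26 without the third library. *Muc1* was lowest in that library. The 8 mesothelial and epithelial markers (*Msln*, *Upk3b*, *Krt19* and others, none at 0) summed to 735 CPM, against 24.6 to 70.4 CPM in the other 7 PE2 libraries. Their part in the *Muc1* values was not tested.

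A pair of low-level genes was higher in some of the peg/peg libraries. *Tigd4*, which derives from a transposase of the tigger family, stood at 0.841, 0.351, 0.530 and 0.368 CPM in PE2 wild types and at 3.01, 3.18, 0.593 and 0.808 CPM in peg/peg. The peg/peg libraries 1 and 2 carried the difference, and library 3 and library 4, at 0.593 and 0.808 CPM, lay within the wild-type range. The log2 fold change was 1.86 ± 0.63, and 2.15 ± 0.54 without the third library.

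*Insrr* encodes a receptor tyrosine kinase of the insulin receptor family that senses alkaline pH. It stood at 0.051, 0.150, 0.221 and 0.368 CPM in PE2 wild types and at 0.776, 0.636, 1.41 and 0.235 CPM in peg/peg, and peg/peg library 4 lay within the wild-type range. The log2 fold change was 1.95 ± 0.69, and 1.46 ± 0.67 without the third library.

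*Selenbp2* is a close relative of the selenium-binding protein gene *Selenbp1* and is known from liver, kidney and fat. It was near 0 in PE2 wild types, at 0.0764, 0, 0.132 and 0.0981 CPM from 13 counts in all. The peg/peg libraries stood at 0.873, 0.636, 2.24 and 0.964 CPM from 200 counts, all above the highest wild type. The log2 fold change was 3.93 ± 0.78, and 3.40 ± 0.70 without the third library, which was the highest. Of the 75-base stretches of *Selenbp2* transcripts, 27.6% also occur in *Selenbp1*, a gene at 22.2 to 27.4 CPM in wild types and 20.4 to 36.4 CPM in peg/peg, with a log2 fold change of 0.08 ± 0.18. *Selenbp1* too was highest in the third peg/peg library, at 36.4 CPM, and without that library its peg/peg values ran from 20.4 to 24.5 CPM. Liver markers (*Alb*, *Apoa2* and *Fgb*) summed to 0.198 CPM in that library, the lowest of the PE2 libraries, and its 4 adipocyte markers to 29.98 CPM, also the lowest. Their part in the *Selenbp2* values was not tested.

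In HDR aorta, which had no part in choosing the genes, none of the 9 genes that could be tested was called by edgeR at an adjusted p of 0.05, where 0.00609% of the 16423 genes tested were. The adjusted p was 1.00 for each of the 9. At an unadjusted p under 0.05 the count was 0 of 9 as well, against 1.98% of all genes, and neither DESeq2 (0.00933% of 42879 genes) nor limma-voom called any of them. In 0 of the 10 genes did the sg/sg libraries lie all above or all below the wild types, against 0.317% of the genes tested. The median log2 fold change of the 9 was 0.03 and the median size 0.11, beside 0.00 and 0.09 over all genes. *Selenbp2* was not tested by edgeR, since it reached the 0.486 CPM required there in 0 libraries: it held 15 counts over the HDR wild types and 10 over sg/sg, at 0 to 0.296 and 0 to 0.338 CPM (exact two-sided permutation test, p = 0.762, unadjusted).

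The intervals show what the HDR comparison could have missed. The PE2 values set beside them are those for which the genes were picked, and their own standard errors do not enter. Whether a PE2 value lies inside an HDR interval is therefore a description and no test of a difference between the experiments. *Sfrp2* stood at 174, 228 and 241 CPM (lowest, median and highest) in HDR wild types and at 114, 190 and 297 CPM in sg/sg, a log2 fold change of -0.01 (95% interval -0.52 to 0.50). *S100a11* stood at 12.97, 15.9 and 18.8 CPM and at 12.4, 15.4 and 19.1 CPM, a log2 fold change of -0.02 (-0.35 to 0.31). *Muc1* stood at 0.618, 0.803 and 1.31 CPM and at 0.764, 0.982 and 1.40 CPM, a log2 fold change of 0.26 (-0.37 to 0.88). The ranges of the genotypes overlapped in each of these genes, and the interval did not contain the PE2 value. The same held for *Tigd4*, at 0.03 (-1.04 to 1.11), for *Pmf1*, at 0.28 (-0.14 to 0.71), and, barely, for *Insrr*, at 0.83 (-0.27 to 1.94) against a PE2 value of 1.95. In *Naxe*, at -0.11 (-0.58 to 0.36), *Ash1l*, at 0.11 (-0.15 to 0.37), and *Pygo2*, at -0.05 (-0.30 to 0.20), the HDR interval contained the PE2 value, so a shift of the PE2 size could not be told from 0 there. *Insrr* had the largest HDR value of the 9, with 0.169 to 0.905 CPM in wild types and 0.213 to 1.30 CPM in sg/sg, and did not pass the test (edgeR, unadjusted p = 0.126). Without the wild type numbered 2 its value was 1.20, and without the sg/sg library numbered 6 it was 1.09. In both of these fits it was the 1 gene of the 9 with an unadjusted p under 0.05 (edgeR), and its adjusted p was 1.00.

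**Figure D2:**
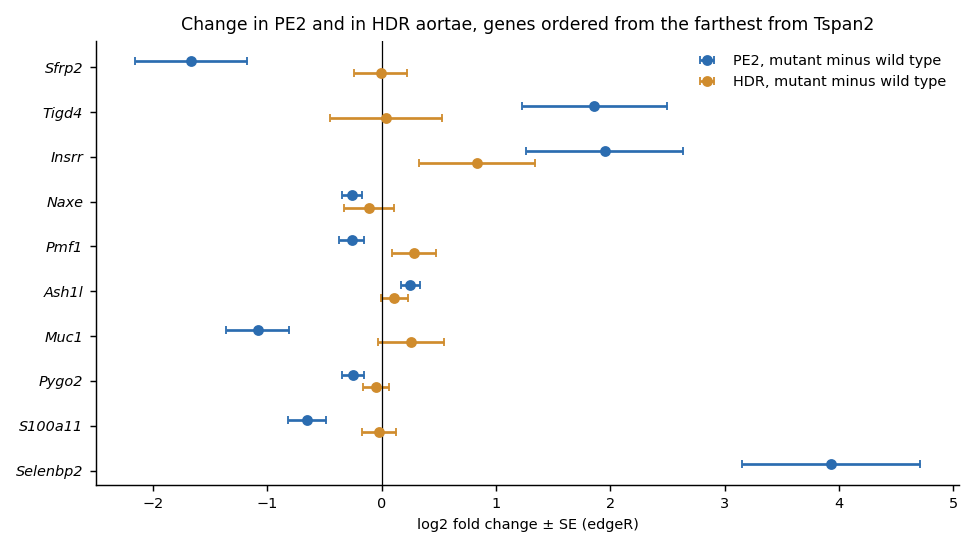
Log2 fold change of mutant over wild type with its standard error (horizontal axis) in PE2 (blue) and HDR (orange) aorta, genes ordered from the farthest from *Tspan2* at the top. *Selenbp2* has no HDR point because it was not tested there. The PE2 points run from -1.67 to 3.93 and the HDR points from -0.11 to 0.83.

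In 1 fit over all 18 libraries, the PE2 change minus the HDR change was largest for *Selenbp2*, at 4.36 ± 1.48 (log2, SE), *Tigd4*, at 1.79 ± 0.82, *Sfrp2*, at -1.69 ± 0.52, and *Muc1*, at -1.36 ± 0.40. It was 1.11 ± 0.86 for *Insrr*, -0.66 ± 0.23 for *S100a11* and -0.56 ± 0.25 for *Pmf1*. For *Pygo2*, *Naxe* and *Ash1l* it was -0.23 ± 0.16, -0.17 ± 0.27 and 0.12 ± 0.16. Without the third peg/peg library the difference of *Insrr* was 0.65 ± 0.87 and that of *Selenbp2* 3.85 ± 1.48. All 10 differences kept their sign. These differences contain the PE2 values for which the genes were picked and are given without a test.

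The wild types of the experiments differed from each other by more than the genotypes did for several of the genes. *S100a11* stood 3.57 ± 0.17 higher (log2) in PE2 than in HDR wild types, an 11.9-fold ratio. For *Ash1l* the same ratio was -1.58 ± 0.11, about 0.334-fold. *Muc1*, *Naxe*, *Pmf1* and *Pygo2* were 0.88 to 1.05 higher in PE2, and *Tigd4* and *Insrr* lower, at -1.17 and -1.26. Per kilobase of exon, *S100a11* was the highest of the 10 in PE2 wild types, at 374 ± 22.7 CPM per kb (SD, n = 4), followed by *Sfrp2* (132 ± 53.5), *Naxe* (54.9 ± 4.17), *Pygo2* (11.5 ± 0.936) and *Ash1l* (6.53 ± 0.393). *Insrr* and *Selenbp2* were the lowest, at 0.0346 and 0.0338 CPM per kb, and did not differ beyond their spread. In HDR wild types *Sfrp2* came first, at 98.6 ± 15.1 CPM per kb (SD, n = 5), and *S100a11* (31.6 ± 4.82) and *Naxe* (28.5 ± 8.28) did not differ beyond their spread. *Ash1l* stood there at 19.6 ± 2.74 CPM per kb, ahead of *Pygo2*, at 6.28 ± 0.553.

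Part of this went with transcript length across all coding genes. For genes of up to 1 kb of exon, the median wild-type ratio of PE2 over HDR was 1.02 (log2), and for genes over 12 kb it was -1.01, with a steady decline between. Not every gene followed its class. *Naxe* (0.95) and *S100a11* (3.57) lay in the class at 1.02, and *Ash1l* (-1.58) in that at -1.01. *Pmf1* and *Insrr*, at 0.90 and -1.26, lay in a class at -0.01. *Tigd4* and *Selenbp2*, at -1.17 and -0.85, lay in a class at 0.46, as did *Sfrp2*, *Muc1* and *Pygo2*, at 0.43, 1.05 and 0.88. With length, the genotype contrasts leaned opposite to the wild-type ratio, and by less. The median PE2 log2 fold change was -0.10 for genes of up to 1 kb and 0.13 for genes over 12 kb (-0.12 and 0.13 without the third peg/peg library). The HDR medians were -0.11 and 0.05. *Naxe*, with 908 exonic bases, and *Ash1l*, with 14838, lie at the ends of this range. Set against genes of their own length, the PE2 value of *Naxe* was -0.16 and that of *Ash1l* was 0.12, where the unadjusted values were -0.26 and 0.25. *S100a11* kept -0.56 of -0.66, and the other 7 moved by at most 0.03. The part of RNA quality and library preparation in these values was not tested.

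**Figure D3:**
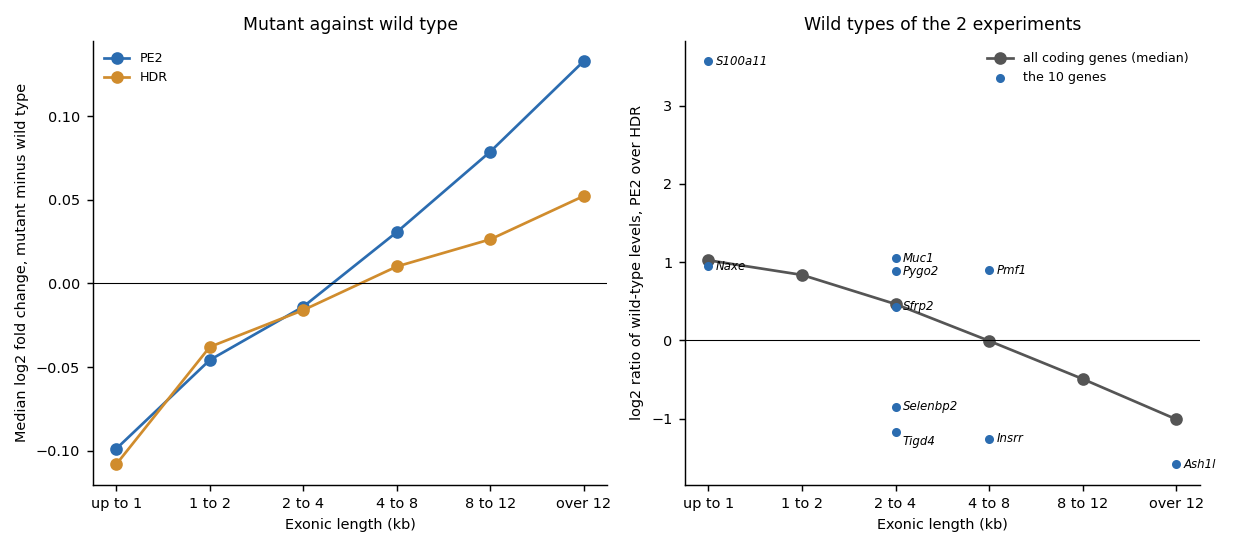
Left, median log2 fold change of mutant over wild type for coding genes in 6 classes of exonic length, in PE2 (blue) and HDR (orange). Right, median log2 ratio of PE2 over HDR wild types in the same classes (grey line), with the 10 genes as points. The left medians run from -0.10 to 0.13 in PE2, and on the right *S100a11*, at 3.57, lies far above the line and *Ash1l*, at -1.58, below it.

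All 10 genes lie on the centromeric side of *Tspan2* in Gencode M21, which is on GRCm38. They start 18.97 (*Sfrp2*, chr3:83766321-83774316), 18.14 (*Tigd4*), 14.94 (*Insrr*), 14.68 (*Naxe*), 14.32 (*Pmf1*), 13.78 (*Ash1l*), 13.51 (*Muc1*, chr3:89229057-89233381), 13.30 (*Pygo2*), 9.21 (*S100a11*, chr3:93520488-93526287) and 8.04 Mb (*Selenbp2*, chr3:94693556-94704413) from the start of *Tspan2*. The genes had been listed as lying 10 to 20 Mb away, so *S100a11* and *Selenbp2* fall short of that distance. From 8 to 20 Mb on this side, 160 genes were tested in PE2, the 10 among them. Of the 150 others, 61 had a PE2 log2 fold change at least as large in size as the smallest of the 10, 0.25, so size alone did not set the 10 apart. Groups that did not overlap were seen in 3 of the 150 others, near the 2.54% of all genes tested, so they do not mark this stretch. They were *Mrpl24*, a mitochondrial ribosomal protein (-0.17 ± 0.07), *Glmp*, a lysosomal membrane protein (-0.18 ± 0.10), and *Dcst2*, a gamete protein (-1.74 ± 0.83). *Dcst2* stood at 0.485 to 1.15 CPM in wild types and at 0 to 0.382 CPM in peg/peg.

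The genes next to the 10 were examined as well. For each of the 10 genes the nearest tested gene on either side was examined, 20 genes in all. None of the 20 had PE2 groups that lay apart, beside 2.54% of all genes, which is too few genes to set that count apart from the share. Of the 20, 12 leaned the same way as their neighbour among the 10, and the median size of their change was 0.23. Without the third peg/peg library that median was 0.09, and 12 again leaned the same way. The groups of 1 neighbour of the 20, *Gpatch4* beside *Naxe* (-0.36 ± 0.14), then lay apart, near the 5.18% of all genes that did. *Mtx1* and *Krtcap2*, which start 1.97 and 16.9 kb from *Muc1*, had log2 fold changes of -0.10 ± 0.11 and -0.02 ± 0.08 beside -1.08 for *Muc1*. *S100a10*, 34.6 kb from *S100a11*, had 0.26 ± 0.21 beside -0.66. Around *Selenbp2*, *Tuft1* and *Cgn* had 2.23 ± 1.05 and 4.41 ± 1.80, and in both the third peg/peg library held the difference (0.21 ± 0.55 and 0.70 ± 1.05 without it), with 10.8 CPM of *Tuft1* and 17.9 CPM of *Cgn* against at most 1.27 and 0.704 CPM in the other PE2 libraries. *Selenbp2*, which was picked for its PE2 change, was also highest in that library, at 2.24 CPM against 0.636 to 0.964 CPM in the other peg/peg libraries.

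Over the wider region, 27 of the 417 tested genes within 20 Mb of *Tspan2* on either side, 6.47%, had PE2 groups that did not overlap. The 6 separated genes described above are among them, and of the other 407 genes 21 (5.16%) did so, beside 2.54% of all genes and 2.40% of those on other chromosomes. With the 10 genes set aside, the share on their side of *Tspan2* was 8.70% of 23 genes within 5 Mb, 7.22% of 97 from 5 to 10 Mb, 2.63% of 114 from 10 to 15 Mb and 0% of 27 from 15 to 20 Mb. On the other side it was 7.41% of 54, 7.89% of 38, 3.70% of 27 and 3.70% of 27 genes at the same distances, and beyond 20 Mb on chromosome 3 it was 3.70% of 405. From 10 to 15 Mb, where 6 of the 10 genes lie, the share of the others is set beside 2.54% of all genes. Without the third peg/peg library the shares of the others on that side were 13%, 12.4%, 6.96% and 3.57%, beside 5.18% of all genes. In HDR the count was 0 of 439, beside 0.317% of all genes. The plot of change against distance shows the PE2 values as a scatter around 0 in both directions, with the HDR values closer to 0. The median size of the change within 20 Mb was 0.19 in PE2 and 0.09 in HDR. Over all genes tested it was 0.17 and 0.09, so this difference between the experiments does not mark the region.

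**Figure D4:**
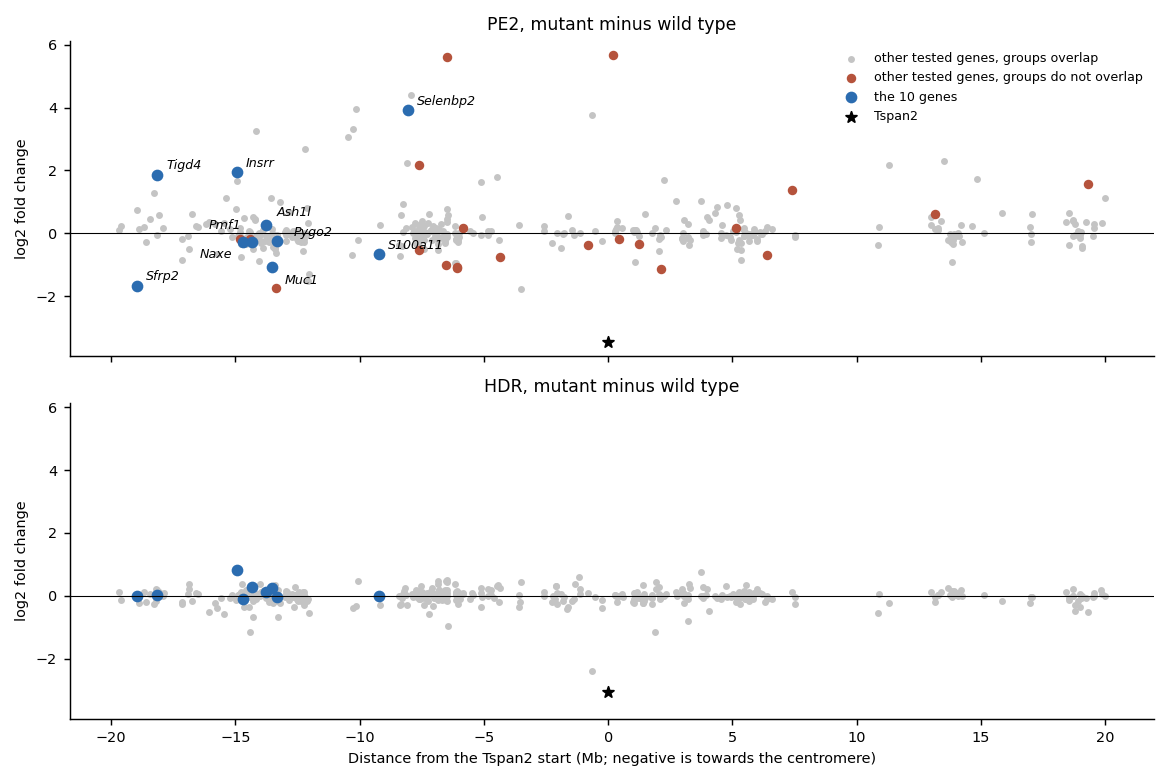
Log2 fold change of mutant over wild type (vertical axis) of each tested chromosome 3 gene against its distance from the *Tspan2* start in Mb (horizontal axis, negative towards the centromere), in PE2 (top) and HDR (bottom). Blue points are the 10 genes, red points other genes whose groups do not overlap, and the star is *Tspan2*. Red points occur in PE2 only, 21 of 407, and lie on either side of *Tspan2*.

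Promoter sequences of RefSeq (GRCm38.p6, 250 bases before to 50 after a start) were at hand for 8 of the 10 genes, with 10 promoters in all, and for neither *Insrr* nor *Ash1l*. A consensus CArG box on either strand occurred in 0 of these 10 and in 1.63% of the 32851 mouse promoters of that length. The word TATAAA occurred in 3 of 10, where 13.6% of all promoters hold it. The word GGGCGG occurred in 7 of 10 (35.7% of all promoters), and the word CCAAT in 5 of 10 (37.4%). *Pygo2* supplied several of the 10 promoters, some of them overlapping, so the same matches recur among them. By gene, GGGCGG was found in *Muc1*, *Naxe*, *Pmf1*, *Pygo2* and *S100a11*, and CCAAT in *Muc1*, *Pmf1*, *Pygo2* and *Selenbp2*. Both strands were searched for each word. These are matches of letters and not shown to be sites. The 250 bases before the start are printed for *Muc1*, *S100a11* and *Selenbp2*, the 3 separated genes with the largest PE2 change, all on the plus strand. The starts are those of RefSeq. Capitals mark matches of these words on either strand, and the matches do not overlap one another here.
Muc1, chr3:89228806-89229055: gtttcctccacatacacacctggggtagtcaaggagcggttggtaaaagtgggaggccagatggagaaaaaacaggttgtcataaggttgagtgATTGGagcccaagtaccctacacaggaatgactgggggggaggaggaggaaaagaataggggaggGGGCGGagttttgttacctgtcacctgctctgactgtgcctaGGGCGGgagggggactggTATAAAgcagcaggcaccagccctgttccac
S100a11, chr3:93520246-93520495: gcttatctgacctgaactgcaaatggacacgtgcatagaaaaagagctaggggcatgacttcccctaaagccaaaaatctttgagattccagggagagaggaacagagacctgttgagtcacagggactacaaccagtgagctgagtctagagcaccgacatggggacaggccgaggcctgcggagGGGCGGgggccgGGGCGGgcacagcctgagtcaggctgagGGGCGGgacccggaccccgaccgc
Selenbp2, chr3:94693323-94693572: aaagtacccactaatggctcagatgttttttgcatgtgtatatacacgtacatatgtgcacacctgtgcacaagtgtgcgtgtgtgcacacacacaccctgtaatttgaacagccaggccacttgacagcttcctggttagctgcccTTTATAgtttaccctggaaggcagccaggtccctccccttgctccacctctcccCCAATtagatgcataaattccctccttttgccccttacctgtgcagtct
*Muc1* has TATAAA and GGGCGG close to its start, *S100a11* has GGGCGG at 3 places and no TATAAA, and *Selenbp2* has neither GGGCGG nor, on its own strand, TATAAA. The 3 genes thus share none of the searched words in all 3 windows.

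The relatives and partners of the 10 genes were listed in 9 families and complexes. Of the other 67 genes on these lists, 55 were tested in HDR and 59 in PE2, and 0 passed an adjusted p of 0.05 in either (edgeR), as 0.00609% and 0.0061% of all genes did. At an unadjusted p under 0.05 the count was 1 in each, beside 1.98% of all genes in HDR and 4.3% in PE2. It was *Muc16* both times, a mucin of mesothelium, with a log2 fold change of -2.74 ± 0.95 in HDR and 5.06 ± 2.02 in PE2. The HDR wild type numbered 3 held 39.5 CPM of *Muc16* against at most 8.03 CPM in the other HDR libraries, and peg/peg library 3 held 33.4 CPM against at most 2.65 CPM. These are the libraries with the most mesothelial and epithelial markers, whose part in the *Muc16* values was not tested. Without peg/peg library 3 the PE2 value of *Muc16* was 1.75 ± 1.40. Of the 60 list genes then tested, *Setd2* (0.22 ± 0.08) was the 1 at an unadjusted p under 0.05 (edgeR). It was also the 1 whose groups lay apart, beside 5.18% of all genes. With all libraries, the groups lay apart in 0 of the 55 tested in HDR and 0 of the 59 tested in PE2. The shares over all genes were 0.317% and 2.54%. Among the Wnt antagonists, *Sfrp1*, *Sfrp4* and *Frzb* had PE2 log2 fold changes of 0.13 ± 0.42, -0.32 ± 0.60 and -0.29 ± 0.40 beside -1.67 for *Sfrp2* (0.34, 0.03 and -0.00 beside -1.43 without the third peg/peg library). *Sfrp5* and *Dkk2* were higher, at 1.10 and 2.00 (1.31 ± 0.75 and 0.29 ± 0.38 without that library). *Dkk3* and *Wif1* had -0.20 and -0.24 (-0.05 and 0.08 without it). *Bcl9*, the partner that tethers *Pygo2* to β-catenin and itself a chromosome 3 gene, had 0.01 ± 0.23. In the S100 cluster, *S100a16* and *S100a4* had -0.02 ± 0.09 and -0.02 ± 0.21, and *S100a6* had 0.80 ± 0.40 (0.18 ± 0.12 without the third peg/peg library). *S100a8* and *S100a9* had larger falls than *S100a11* (-0.66), at -1.53 and -1.29, with groups that overlapped. Without that library *S100a8* had -1.22 ± 0.80, and *S100a9* was also still lower in peg/peg. *S100a14* was higher, at 2.69 (-0.14 ± 0.77 without that library). *S100a1*, *S100a13* and *S100a7a* had -0.18, -0.27 and 0.34. *Naxd*, the dehydratase that acts in the same repair pathway as *Naxe*, had -0.09 ± 0.09. *Mis12* and *Dsn1*, which join *Pmf1* in its complex, had 0.18 ± 0.10 and 0.09 ± 0.20. *Setd2* and *Nsd1*, which like *Ash1l* methylate lysine 36 of histone H3, had 0.15 ± 0.10 and 0.12 ± 0.10.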

How the data were processed

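RNA-seq libraries of single mouse aortae were compared within each experiment (5 against 5 HDR, 4 against 4 PE2). The deposited tables hold raw counts per gene symbol, made by the authors with fastp, STAR 2.7.0f on GRCm38 with a Gencode annotation, and featureCounts of Subread 1.6.4, and the deposited normalized counts were not used here. The strand setting is not given in the sources used here, and the sources differ on kit and read length. Columns were assigned by name. HDR columns are numbered 2 to 6 and the labels 1 to 5, so sex could not be matched there, and 0 columns were left unused. The p-values measure only the spread between these mice, whose litters are not given.

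From the counts, edgeR 4.0.16 (R 4.3.3; TMM, filterByExpr with a minimum count of 10, glmQLFit, glmQLFTest) was fitted to each experiment alone, with Benjamini-Hochberg adjustment over all genes tested (threshold 0.05), and checked on simulated data. CPM use TMM library sizes. Standard errors are the fold change divided by the root of its F. Groups "do not overlap" where all mutant CPM lie above, or all below, all wild-type CPM. Alternatives were DESeq2 1.42.0 (all genes), its size factors, limma 3.58.1 (voom), other filters, robust dispersions, and libraries left out. The HDR fit with the column number as a block, and the values of genes other than the 10 without peg/peg library 3, were added after seeing the data. Intervals are at 95%. Low values (*Selenbp2*, *Insrr*, *Tigd4*, *Muc1*) rest on few counts per library. Positions and exonic lengths came from Gencode M21 (98.2% of symbols placed once). Python 3.11.15, pandas 2.3.3 and scipy 1.17.1 served for the rest.

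The 10 genes, and the lists of relatives and markers, were chosen with earlier results of these data known. Named by rule were the 10 genes, *Tspan2*, the nearest tested neighbours, overlapping genes, relatives on the lists, and other genes 8 to 20 Mb away whose PE2 groups do not overlap and whose change is at least the smallest of the 10 (*Dcst2*). *Mrpl24*, *Glmp*, *Gm12854* and *Gm7665* were named after their values were seen. The values of 1 neighbouring gene are not reported here.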

Additional observations from a re-analysis of the deposited data

Results flagged for a closer look

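Of 40 groups of libraries examined (10 genes, 4 groups each), 2 held a library far from the rest by Dixon's ratio, and chance flags about 1 group in 20. *Tigd4* stood at 2.82 CPM in the sg/sg library numbered 6, with the other 4 at 0.566 to 1.12 CPM (ratio 0.753, critical value 0.71). Without it the HDR log2 fold change of *Tigd4* was -0.54 in place of 0.03. *Pmf1* stood at 4.58 CPM in the HDR wild type numbered 5, with the other 4 at 7.19 to 7.94 CPM (ratio 0.776). Without it the HDR log2 fold change of *Pmf1* was 0.16 in place of 0.28. Neither gene was called in HDR with or without these libraries.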

How the results depend on the processing

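0 of the 9 genes tested in HDR were called under any alternative, and their adjusted p ran from 0.669 to 1.00. HDR fold changes close to 0 changed sign in 6 cases: *Sfrp2* with DESeq2 size factors (0.00067), with DESeq2 (0.0016) and against genes of its length (0.0055), *Tigd4* with limma-voom (-0.057) and with a replicate block (-0.037), and *S100a11* against genes of its length (0.085). The comparison with genes of a gene's length was chosen after seeing the data, as were the HDR block and the values of other genes without peg/peg library 3. With each library left out in turn, the HDR log2 fold change ran from -0.17 to 0.15 for *Sfrp2*, -0.54 to 0.34 for *Tigd4*, -0.22 to 0.0011 for *Naxe*, -0.090 to 0.020 for *Pygo2* and -0.10 to 0.054 for *S100a11*. It ran from 0.13 to 0.43 for *Muc1*, 0.13 to 0.36 for *Pmf1*, 0.05 to 0.16 for *Ash1l* and 0.61 to 1.20 for *Insrr*. The cause was not tested. All 10 PE2 fold changes kept their sign under every alternative run, and 97 of 98 moved by less than the spread between libraries (*Ash1l* against genes of its length: 0.12). The PE2 count of genes whose groups do not overlap was 6 to 8 of 10 with a library left out, beside 3.77% to 9.53% of all genes, and 8 (4.02% of all genes) in the female libraries.

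Within 20 Mb of *Tspan2*, the count of separated PE2 genes was 27 of 417, beside 2.54% of all genes. It was 18 of 214 within 10 Mb, 9 of 203 from 10 to 20 Mb and 11 of 214 from 8 to 20 Mb. The 27 and the 11 include the 6 separated genes of the 10, which were picked on this contrast. Of these 6, the 18 include *S100a11* and *Selenbp2*, and the 9 include *Naxe*, *Pmf1*, *Ash1l* and *Muc1*. With 1 library left out the count within 20 Mb was 30 to 53, beside 3.77% to 9.53% of all genes, since fewer libraries overlap less easily. It was 46 without wild type 1, 44 without wild type 3, and 42, 44 and 53 without peg/peg libraries 2, 3 and 4. In HDR the count within 20 Mb was 0 of 439, beside 0.317% of all genes. It was 2 of 952 without the filter, and 0 to 1 with a library left out.

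PE2 replicate numbers are shared by the genotypes but did not pair the libraries (correlations of same-numbered deviations -0.046, -0.18, -0.036 and -0.25). With the replicate number as a block, the PE2 log2 fold changes were -1.75 (*Sfrp2*), 1.58 (*Tigd4*), 1.99 (*Insrr*), -0.26 (*Naxe*), -0.27 (*Pmf1*), 0.25 (*Ash1l*), -1.11 (*Muc1*), -0.25 (*Pygo2*), -0.68 (*S100a11*) and 4.06 (*Selenbp2*), and genes called over the whole table went from 1 to 0. In HDR the column numbers 2 to 6 are shared by the genotypes but match no label. Same-numbered deviations there correlated by 0.61, 0.17, -0.18, 0.47 and 0.31, in the order of the numbers, and the main HDR fit held no block. With that number as a block 0 of the 9 genes were called, and 1 (*Insrr*, 0.84) had an unadjusted p under 0.05 (edgeR). Over the whole table, genes called stayed at 1 and those at an unadjusted p under 0.05 went from 325 to 413. No sex term could be fitted in HDR. Counts of overlap do not depend on the test, so they have no DESeq2, limma-voom or robust alternative. *Selenbp2* fell short of the edgeR filter in HDR, and without a filter and with DESeq2 it was tested and not called.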
